A study of Homo sapiens with 8 samples.

Results

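The MAGEA genes are a family of cancer-testis antigen genes on Xq28, and their RNA was followed here in HEK293T cells that stably expressed the TET1 catalytic domain with or without a methyl-CpG-binding domain. The members were the 10 genes MAGEA1, MAGEA2B, MAGEA3, MAGEA4, MAGEA6, MAGEA8, MAGEA9, MAGEA10, MAGEA11, and MAGEA12, and their probes were found through the RefSeq transcript that the array design gives for each probe. Of the 34071 probes analysed, 11 belonged to 9 of these genes, and no probe carried a MAGEA3 transcript. HEK293T cells derive from human embryonic kidney. All lines carried the blasticidin-selected plasmid pcDNA6/myc-His and were expanded from single colonies, so that each line is 1 clone. The 4 groups were empty vector (#1 and #2), TET1-CDwt (#2 and #5, the TET1 catalytic domain alone), MBD-TET1-CDwt (#3 and #10, this domain joined to the methyl-CpG-binding part of MBD2), and MBD-TET1-CDmut (#9 and #10, the fusion with a catalytically inactive domain). Each clone was measured once. The error of every tested comparison thus rests on the spread between the 2 clones of a group, pooled over the 4 groups. The fit also drew this spread toward a common value estimated from all tested probes.

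MAGEA proteins share a MAGE homology domain through which they bind RING-type E3 ubiquitin ligases. In the adult body the genes are expressed mainly in testicular germ cells and placenta, whereas in most other tissues their CpG-containing promoters are methylated and the genes are silent. They are reactivated in many tumours, where peptides of MAGEA proteins are presented to T cells, and inhibitors of DNA methylation are known to induce them in cultured cells. TET1 oxidizes 5-methylcytosine, and the methyl-CpG-binding domain of MBD2 recognizes methylated CpG sites. The comparison of MBD-TET1-CDwt with the other constructs therefore asks whether these genes are transcribed when a demethylating activity is brought to methylated DNA.

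The stretches upstream of the first annotated transcription start are shown for the genes that carried the signals described below and for MAGEA4, which was detected in 1 clone only, because the CpG sites in them are what the fusion protein is designed to reach. They were taken from RefSeq (GRCh38.p14), run 5′ to 3′ on the strand of the gene, and have every CpG in capitals. The DNA methylation of these sites was not measured on the arrays.

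MAGEA2B, chrX:152714378-152714585, plus strand, 8 CpG in 208 bases: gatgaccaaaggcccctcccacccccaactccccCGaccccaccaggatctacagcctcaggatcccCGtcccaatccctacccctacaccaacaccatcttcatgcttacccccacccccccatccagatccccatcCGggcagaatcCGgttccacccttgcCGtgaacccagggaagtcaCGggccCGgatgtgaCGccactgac
MAGEA6, chrX:152769690-152769939, minus strand, 15 CpG in 250 bases: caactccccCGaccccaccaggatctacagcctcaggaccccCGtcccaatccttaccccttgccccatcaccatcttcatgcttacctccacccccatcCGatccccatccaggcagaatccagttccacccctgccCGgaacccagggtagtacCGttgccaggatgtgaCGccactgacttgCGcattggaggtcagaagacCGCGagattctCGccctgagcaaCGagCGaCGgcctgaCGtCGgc
MAGEA12, chrX:152733507-152733756, plus strand, 5 CpG in 250 bases: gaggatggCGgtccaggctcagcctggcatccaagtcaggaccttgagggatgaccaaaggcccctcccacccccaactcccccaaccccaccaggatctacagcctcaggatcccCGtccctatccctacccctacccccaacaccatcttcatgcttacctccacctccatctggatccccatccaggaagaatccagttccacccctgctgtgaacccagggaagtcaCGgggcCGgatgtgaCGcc
MAGEA8, chrX:149880933-149881182, plus strand, 8 CpG in 250 bases: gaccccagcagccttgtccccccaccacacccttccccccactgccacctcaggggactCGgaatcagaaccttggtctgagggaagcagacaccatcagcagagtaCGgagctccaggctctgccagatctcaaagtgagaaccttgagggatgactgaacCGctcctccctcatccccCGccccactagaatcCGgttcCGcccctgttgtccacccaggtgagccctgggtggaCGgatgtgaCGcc
MAGEA9, chrX:149781680-149781876, plus strand, 5 CpG in 197 bases: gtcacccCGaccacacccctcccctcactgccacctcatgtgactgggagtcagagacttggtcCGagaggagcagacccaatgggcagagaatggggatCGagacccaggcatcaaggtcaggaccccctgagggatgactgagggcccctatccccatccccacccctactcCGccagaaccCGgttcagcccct
MAGEA4, chrX:151912224-151912473, plus strand, 6 CpG in 250 bases: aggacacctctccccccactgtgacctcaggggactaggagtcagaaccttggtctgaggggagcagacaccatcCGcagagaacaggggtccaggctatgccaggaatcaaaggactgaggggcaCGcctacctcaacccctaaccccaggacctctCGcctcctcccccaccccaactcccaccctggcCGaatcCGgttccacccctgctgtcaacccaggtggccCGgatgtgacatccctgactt

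RefSeq windows of 300 bases, reaching from 250 bases before to 50 bases after a transcription start, were available for 8 of the 10 members and gave 13 windows. The number of CpG sites per window ranged from 9 at the first start of MAGEA12 to 21 at MAGEA11, against a median of 14 and quartiles of 4 and 28 over all 35116 windows. The CpG content of the members was thus within the middle range of human promoters. The windows of MAGEA3 and MAGEA6 had 19 CpG sites each, MAGEA2B had 17, MAGEA8 had 12, and MAGEA9 had 10. The windows nearest to the gene start were identical in all 300 bases between MAGEA3 and MAGEA6, and MAGEA2B shared 93.0% of aligned bases with MAGEA6 and 94.0% with MAGEA12. MAGEA8 and MAGEA9 shared 82.2% with each other, and 83.9% and 83.3% with MAGEA4.

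Every member window held the stretch GGATGTGA (or TCACATCC on the other strand), which was found in 1.16% of all windows. These letters ran on directly into a CpG in 7 member windows of the 6 genes MAGEA2B, MAGEA3, MAGEA6, MAGEA8, MAGEA9, and MAGEA12, and in 0.134% of all windows. The stretch was picked after the member windows had been read. One form of ETS factor site, CCGGAA or TTCCGG, was found in the windows of MAGEA3 and MAGEA6 at position -113. It was in no other member window, against 17.2% of all windows. Other forms of ETS sites were not searched for, so that their absence cannot be read from this. The GC box core GGGCGG or CCGCCC was found in 7 member windows of 4 genes, against 45.0% of all windows.

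**Figure D1:**
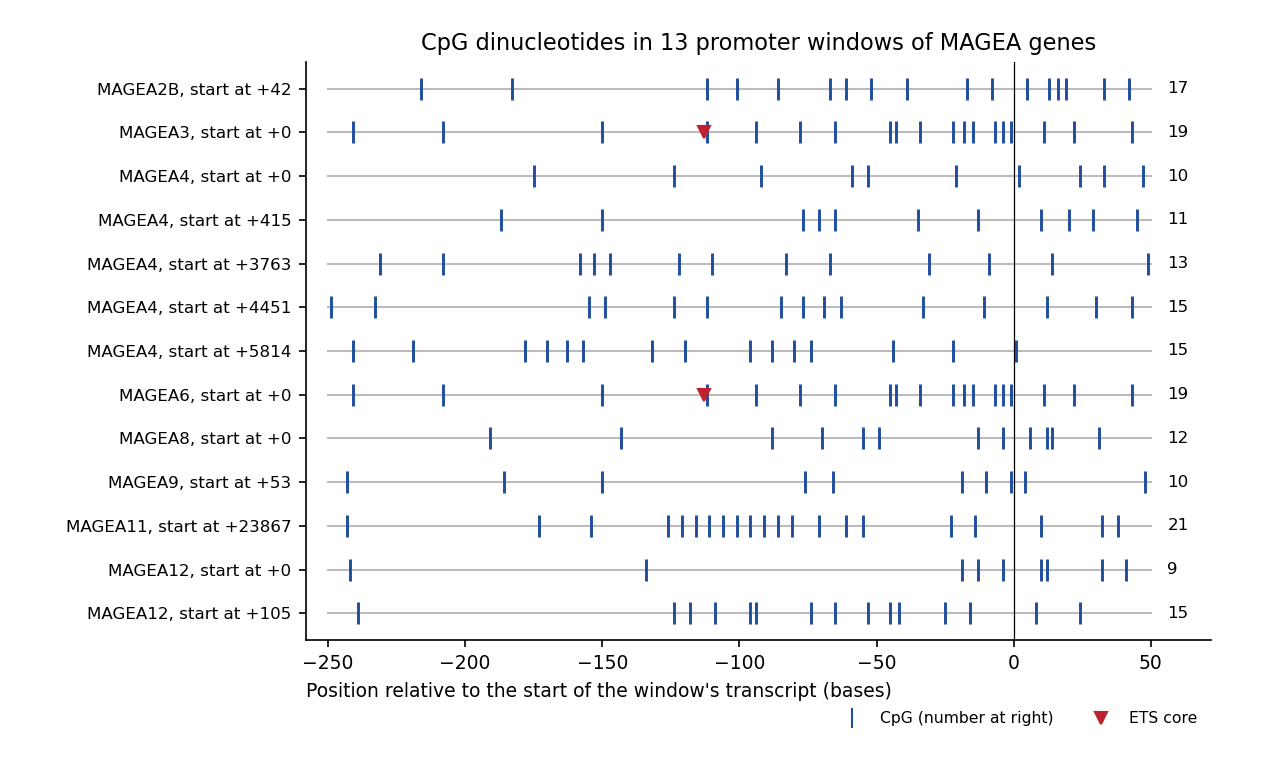
CpG sites (bars) in the 13 RefSeq promoter windows of 8 MAGEA genes, with the position in bases relative to the start of each window's transcript on the x axis, 1 window per line named by gene and by the distance of its start from the first annotated start, and the number of CpG sites at the right. Triangles, labelled ETS core, mark CCGGAA or TTCCGG, the only form of ETS site that was searched for. The counts run from 9 in the first window of MAGEA12 to 21 in the window of MAGEA11, and MAGEA3 and MAGEA6 (19 each) show the same positions.

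Signals are given as log2 intensities relative to the array's 75th percentile over probes other than controls, which is 0 on this scale. That percentile was at an intensity of 327 to 527, and the dimmest probe that the scanner software called well above background lay between -6.01 and -5.51. Of the probes on an array, 63.2% to 68.2% were well above background. Slide 1 held the empty vector and TET1-CDwt arrays and slide 2 those of both fusions. Slide and construct cannot be told apart between MBD-TET1-CDwt and empty vector or TET1-CDwt, whereas the comparison with MBD-TET1-CDmut lies within slide 2. The median difference from empty vector of the 9137 probes that were not well above background on any array was 0.37 in MBD-TET1-CDwt, 0.35 in MBD-TET1-CDmut, and -0.07 in TET1-CDwt, so that undetected probes on slide 2 read higher by this much. Fewer expressing cells and less RNA per cell cannot be told apart in such bulk measurements.

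In empty vector cells most of the family was undetected. Of the 11 member probes, 1 was well above background on empty vector #1 (MAGEA6 A_23_P136870, at -2.18) and 2 on empty vector #2 (the same probe, at -2.65, and MAGEA12). The number was 3 and 4 in TET1-CDwt #2 and #5, 6 and 8 in MBD-TET1-CDwt #3 and #10, and 3 and 2 in MBD-TET1-CDmut #9 and #10. All 11 member probes had a higher mean in MBD-TET1-CDwt than in the vector control, which held for 55.4% of all probes. Their median log2 difference was 2.08, against 0.05 over all probes. The median was 1.73 against MBD-TET1-CDmut, where it was 0.02 over all probes, and 2.16 against TET1-CDwt, where it was 0.11 over all probes. In 8 of the 11 member probes both MBD-TET1-CDwt arrays lay above the other 6 arrays, which held for 6.32% of all probes. Among these 8, the probes of MAGEA1 and MAGEA10 were undetected on all arrays. MAGEA2B A_33_P3411165, also among them, was detected in MBD-TET1-CDwt #10 only. In 4 member probes both MBD-TET1-CDwt arrays and no empty vector array were well above background, which held for 0.203% of all probes.

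**Figure D2:**
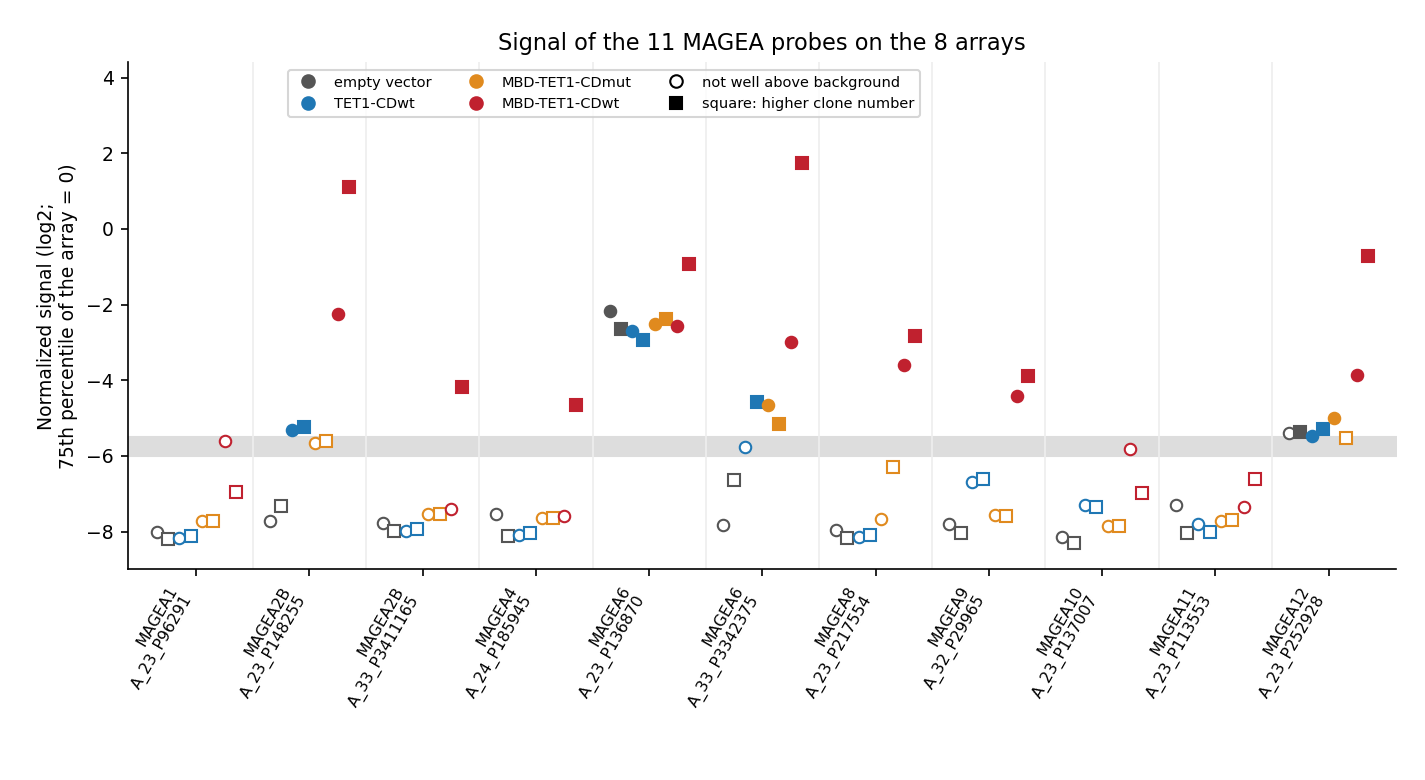
Normalized signal (log2, y axis) of each of the 11 MAGEA probes (x axis) on the 8 arrays, 1 point per clone, coloured by construct, with squares for the clone of the higher number. Filled points were well above background, and the grey band spans the dimmest such signals of the 8 arrays (-6.01 to -5.51). The points of MBD-TET1-CDwt stand above the others in 8 probes, of which those of MAGEA1 and MAGEA10 were undetected on all arrays. MBD-TET1-CDwt #10 reaches 1.75 on a MAGEA6 probe.

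MAGEA2B, MAGEA6, and MAGEA12, which lie close together in the distal part of the cluster, were detected in both MBD-TET1-CDwt clones. MAGEA2 and MAGEA6 proteins bind the ubiquitin ligase TRIM28, and MAGEA2 is also known as a p53-binding protein. The MAGEA2B probe A_23_P148255 read -7.73 and -7.34 in empty vector, -5.31 and -5.23 in TET1-CDwt, -2.25 and 1.12 in MBD-TET1-CDwt, and -5.65 and -5.61 in MBD-TET1-CDmut. Both MBD-TET1-CDwt clones were above every other clone, and none of the empty vector and MBD-TET1-CDmut arrays was well above background. Relative to empty vector, MAGEA2B was higher in MBD-TET1-CDwt by at least 40.7-fold, a bound in which each dim array enters at the higher of its own signal and that array's dimmest detected signal. Against MBD-TET1-CDmut the difference was at least 31.1-fold, and against TET1-CDwt, in which the probe was well above background in both clones, it was 26.0-fold. In the fit of limma over 22530 probes the log2 difference from empty vector was 6.97 ± 0.93 (SE, n = 2 clones per group, adjusted p = 0.0980), and it did not pass the test. With a normexp background correction, which adds an offset of 50 to every intensity, the log2 difference was 2.45. Without normexp, the clones taken singly were at least 12.6-fold (#3) and at least 131-fold (#10) above empty vector.

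The second MAGEA2B probe, A_33_P3411165, read -7.42 and -4.18 in MBD-TET1-CDwt #3 and #10, and between -7.99 and -7.52 on the other 6 arrays. Only in MBD-TET1-CDwt #10 did it exceed background. The 2 probes of MAGEA2B thus both placed MBD-TET1-CDwt #10 highest, but they disagreed on MBD-TET1-CDwt #3. MAGEA2 and MAGEA2B carry the same promoter (258 of 258 aligned bases were identical), and transcripts of the 2 copies may share these probes.

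MAGEA6 was represented by 2 probes, which disagreed. MAGEA6, like the nearly identical MAGEA3, directs TRIM28 to the energy sensor AMPK. The probe A_33_P3342375 read -7.82 and -6.64 in empty vector, -5.76 and -4.59 in TET1-CDwt, -3.00 and 1.75 in MBD-TET1-CDwt, and -4.67 and -5.17 in MBD-TET1-CDmut. Both MBD-TET1-CDwt clones lay above the other 6, and TET1-CDwt #2 was not well above background. The difference from empty vector was at least 39.0-fold (log2 6.60 ± 1.37 in limma, SE, adjusted p = 0.371) and that from MBD-TET1-CDmut 19.6-fold. Against TET1-CDwt it was 23.4-fold, with 1 of the 2 TET1-CDwt arrays undetected. The log2 difference from empty vector with normexp was 2.71. Without normexp, the fold was at least 7.53 in #3 and at least 202 in #10. The other probe, A_23_P136870, with 10 spots per array, was well above background everywhere and read -2.18 and -2.65 in empty vector, -2.69 and -2.94 in TET1-CDwt, -2.58 and -0.93 in MBD-TET1-CDwt, and -2.51 and -2.39 in MBD-TET1-CDmut. On this probe MBD-TET1-CDwt #3 lay among the other constructs and MBD-TET1-CDwt #10 alone was higher (log2 difference 0.66 ± 0.49 in limma, SE, adjusted p = 0.887, 95% interval -0.51 to 1.82). Without MBD-TET1-CDwt #10 this difference turned to -0.16.

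MAGEA12, a further antigen of this subgroup recognized by T cells, was near the limit of detection in all constructs but the active fusion. Its probe read -5.40 and -5.36 in empty vector, -5.47 and -5.30 in TET1-CDwt, -3.86 and -0.71 in MBD-TET1-CDwt, and -5.00 and -5.53 in MBD-TET1-CDmut. Both MBD-TET1-CDwt clones were above the other 6, whose range was only -5.53 to -5.00. The mean was 8.57-fold higher than in empty vector and 7.89-fold higher than in MBD-TET1-CDmut, each with 1 of 2 arrays undetected, and 8.56-fold higher than in TET1-CDwt. Against empty vector the log2 difference with normexp was 1.25. Without normexp, the fold over empty vector was 2.88 in #3 and 25.5 in #10. The gap between the 2 clones was 3.15 on the log2 scale, as large as the log2 difference of 3.1 ± 0.87 from empty vector (limma, SE, adjusted p = 0.571).

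MAGEA8 and MAGEA9, which lie next to each other in the proximal part of the cluster, were the only members called by limma. Their probes were well above background on the 2 MBD-TET1-CDwt arrays alone, and it was through these that they entered the test. MAGEA8 rose from -7.96 and -8.17 in empty vector to -3.59 and -2.83 in MBD-TET1-CDwt. It read -8.15 and -8.08 in TET1-CDwt and -7.67 and -6.29 in MBD-TET1-CDmut, none of them well above background. The log2 difference from empty vector was 4.85 ± 0.45 (limma, SE, adjusted p = 0.0190), a difference of at least 6.52-fold. It was 4.91 against TET1-CDwt (limma, adjusted p = 0.0213) and 3.77 against MBD-TET1-CDmut (limma, adjusted p = 0.0700), where the test was not passed and the bound was 4.99-fold, just under the 5-fold threshold.

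MAGEA9 rose from -7.81 and -8.04 in empty vector to -4.42 and -3.88 in MBD-TET1-CDwt. It read -6.68 and -6.62 in TET1-CDwt and -7.57 and -7.58 in MBD-TET1-CDmut, again with none well above background. The log2 differences were 3.77 ± 0.22 from empty vector (limma, SE, adjusted p = 0.00243), 3.43 ± 0.22 from MBD-TET1-CDmut (adjusted p = 0.00474), and 2.50 ± 0.22 from TET1-CDwt (adjusted p = 0.0174). As bounds these were at least 3.39-fold, 2.60-fold, and 3.39-fold. The sequence of MAGEA9 upstream of the start is shared in all 300 bases of the window with its copy MAGEA9B, and the probe may read both.

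With normexp the log2 difference from empty vector became 0.97 for MAGEA8 (limma, adjusted p = 0.387) and 0.66 for MAGEA9 (limma, adjusted p = 0.683). Without the filter on dim probes, the limma adjusted p against empty vector was 0.0753 for MAGEA8 and 0.00963 for MAGEA9, and against TET1-CDwt 0.0738 and 0.0539. Over the 15 alternatives of the fit the adjusted p of MAGEA8 ranged from 0.0128 to 0.387 and that of MAGEA9 from 0.00136 to 0.683. Against empty vector, MAGEA8 was no longer called when either empty vector clone or either TET1-CDwt clone was left out, which left MAGEA9 alone, and 7 member probes were called when MBD-TET1-CDwt #3 was left out. Against TET1-CDwt, MAGEA8 was called in 7 and MAGEA9 in 5 of the 15 alternatives, and neither was when any empty vector or TET1-CDwt clone was left out. Against MBD-TET1-CDmut, MAGEA9 was called in 12 of 15.

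Counted over the family, limma called 2 of the 6 tested member probes as raised over empty vector by MBD-TET1-CDwt, against 0.102% of all probes tested. It called 1 higher than in MBD-TET1-CDmut, against 0.0888%, and 2 higher than in TET1-CDwt, against 0.107%. No member was called lower, and 0.0133%, 0.0133%, and 0.00888% of all probes were in these comparisons. With no filter on dim probes MAGEA9 alone was called against empty vector and MBD-TET1-CDmut (1 each) and 0 members against TET1-CDwt, against 0.0264%, 0.0264%, and 0.0411% of all probes. The other 5 member probes did not enter the test because they were not well above background on both arrays of any group. By size, a gene was counted if any of its probes passed. In MBD-TET1-CDwt 4 of the 9 genes with a probe exceeded empty vector 5-fold, namely MAGEA2B, MAGEA6, MAGEA12, and MAGEA8, against 0.234% of all genes. All of these but MAGEA8 also exceeded MBD-TET1-CDmut 5-fold, against 0.177% of all genes, and all 4 exceeded TET1-CDwt 5-fold, against 0.195%. At 2-fold MAGEA9 joined them in each of the 3 comparisons, where 0.955%, 1.01%, and 0.836% of all genes passed. Without MBD-TET1-CDwt #10 the 5-fold counts were 2, 1, and 1, and with normexp they were 2, 1, and 2. MAGEA2B and MAGEA6 each passed 5-fold over empty vector on only 1 of 2 probes. The other probe gave 1.58-fold for MAGEA6. For MAGEA2B it gave at least 1.09-fold, with 1 of the 2 MBD-TET1-CDwt arrays detected.

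**Figure D3:**
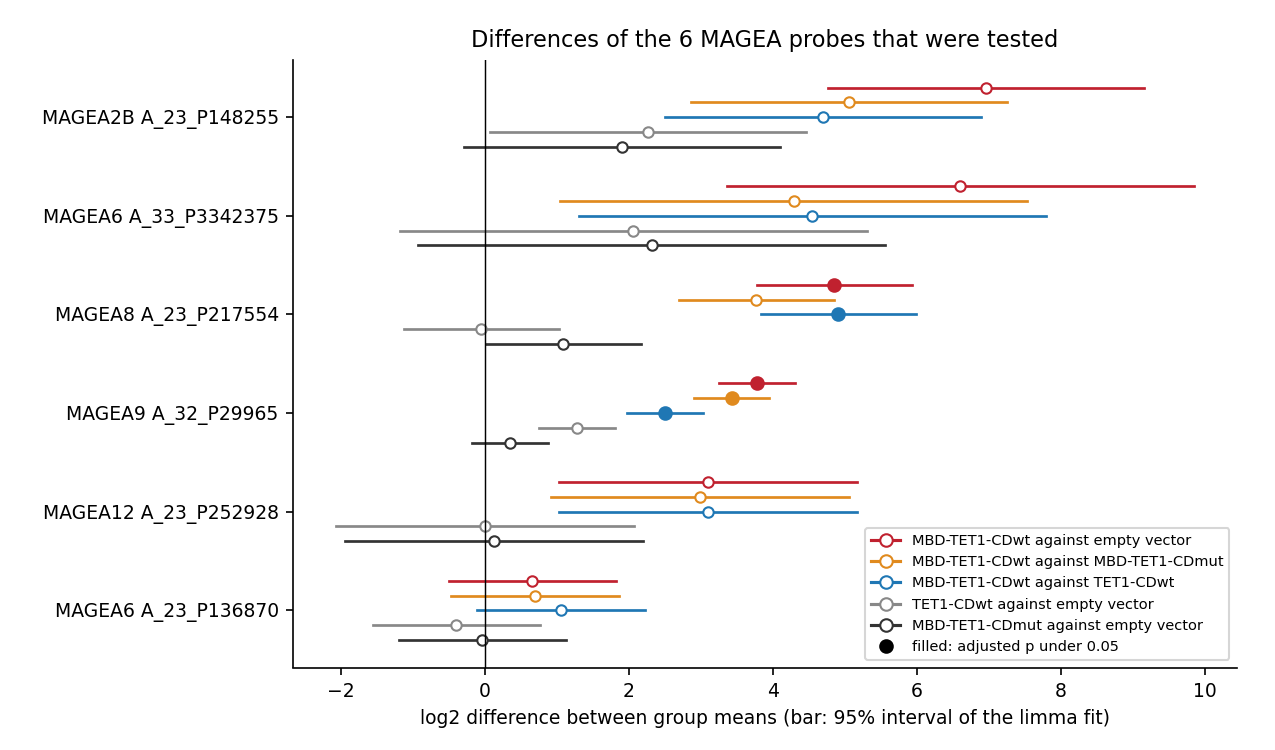
Log2 difference between group means (x axis) with the 95% interval of the limma fit for the 6 tested MAGEA probes (y axis) in 5 comparisons, distinguished by colour. Filled points passed an adjusted p of 0.05. MAGEA9 (3.77 against empty vector) has narrow intervals, whose error pools the spread of undetected signals in all constructs but MBD-TET1-CDwt. The intervals of MAGEA2B and MAGEA6 A_33_P3342375 (6.97 and 6.60) are wide. No array of empty vector was well above background for MAGEA2B, MAGEA8, MAGEA9, and this MAGEA6 probe, so that these differences are not measured on both sides.

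MAGEA4, whose protein binds the ubiquitin ligase RAD18, was detected in 1 clone only. It read -4.65 in MBD-TET1-CDwt #10, -7.60 in MBD-TET1-CDwt #3, and between -8.11 and -7.53 on the other 6 arrays. In MBD-TET1-CDwt #10 the signal was at least 2.41-fold above empty vector. MAGEA1, which binds the transcriptional regulator SNW1, MAGEA10, and MAGEA11 were not well above background on any array, and no fold is given for them. MAGEA1 read -5.59 and -6.95 in MBD-TET1-CDwt against -8.21 to -7.72 on the other 6 arrays. MAGEA10 read -5.81 and -6.98 there against -8.31 to -7.30. For these 2 genes both MBD-TET1-CDwt arrays lay above the other 6, but all 8 signals were undetected and no order is read from them. MAGEA11 read -7.34 and -6.60 in MBD-TET1-CDwt and -8.04 to -7.29 elsewhere, and the groups overlapped.

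The 2 MBD-TET1-CDwt clones differed in which members they expressed and in how strongly. Of the 6 member probes well above background in both, all were higher in #10 than in #3, and 4 were so by at least 2-fold, against 6.01% of all probes well above background in both. The gap between #10 and #3 on the log2 scale was 4.75 for MAGEA6 A_33_P3342375, 3.37 for MAGEA2B A_23_P148255, 3.15 for MAGEA12, and 1.64 for MAGEA6 A_23_P136870. For MAGEA8 it was 0.77 and for MAGEA9 0.54. Expressed as the SD of 1 clone in this group, these gaps were 0.54 and 0.38, beside 0.50 over all tested probes. Among these 6 probes, those of the distal genes MAGEA2B, MAGEA6, and MAGEA12 differed more between the clones than those of the proximal genes MAGEA8 and MAGEA9. Taken alone, #3 had 2 members (MAGEA2B and MAGEA6) at least 5-fold above empty vector, where 0.155% of all genes were, and #10 had 4 (MAGEA2B, MAGEA6, MAGEA8, and MAGEA12), where 0.602% of all genes were. A single clone against another has no replicate, and these gaps carry no test.

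**Figure D4:**
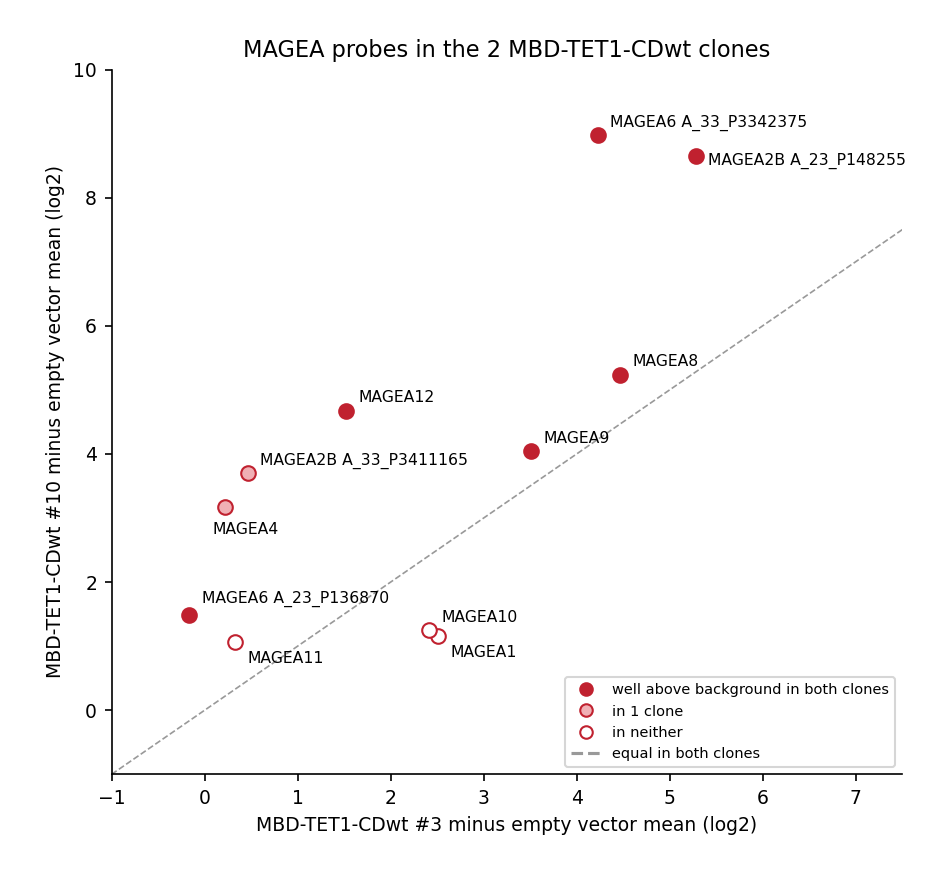
Log2 difference from the empty vector mean of each MAGEA probe in MBD-TET1-CDwt #3 (x axis) and #10 (y axis), filled by the number of clones in which the probe was well above background, with the line of equality dashed. Of the 11 probes, 9 lie above the line and 2 (MAGEA1 and MAGEA10, undetected in both clones) below it. MAGEA8 and MAGEA9 are close to the line.

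In the constructs with catalytic activity but no targeting domain, or the reverse, no member passed the test against empty vector. Against empty vector limma called 0 probes of the array in TET1-CDwt (147 higher and 417 lower by unadjusted p under 0.05) and 0 in MBD-TET1-CDmut (194 higher and 408 lower). In TET1-CDwt both arrays lay above both empty vector arrays for 4 of the 11 member probes, against 8.54% of all probes. These were MAGEA2B A_23_P148255 (log2 difference 2.26, 95% interval 0.07 to 4.46), MAGEA6 A_33_P3342375 (2.06, -1.19 to 5.30), MAGEA9 (1.28, 0.75 to 1.80), and MAGEA10, which was not tested. MAGEA9 was not well above background in either group, so that its interval compares undetected signals. Of the 4 probes, that of MAGEA2B was well above background in both TET1-CDwt clones, at least 1.56-fold above empty vector. With normexp its difference became -0.03.

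In MBD-TET1-CDmut both arrays lay above both empty vector arrays for 7 member probes, but this held for 27.9% of all probes, and the median difference of the members was 0.36, close to that of undetected probes on this slide. MAGEA6 A_33_P3342375 was well above background in both MBD-TET1-CDmut clones and at least 1.995-fold above empty vector (log2 2.31, 95% interval -0.93 to 5.56). MAGEA2B A_23_P148255 was higher by 1.90 on the log2 scale (-0.29 to 4.10) without being well above background. No member was counted as 2-fold or 5-fold higher in TET1-CDwt, where 0.278% and 0.0108% of all genes were, nor in MBD-TET1-CDmut, where 0.281% and 0.0288% were. MAGEA6 in MBD-TET1-CDmut was just short of 2-fold.

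The genes that lie between the MAGEA genes were compared in the same way. RefSeq places 29 other protein-coding genes between the outermost MAGEA genes on the X chromosome, and 25 of them had 30 probes, of which 21 were tested. None was called by limma in MBD-TET1-CDwt against empty vector (6 of 21 at an unadjusted p under 0.05, against 6.60% of all probes tested), and the median log2 difference was 0.10 with a range of -1.45 to 1.64, against -0.02 over all probes tested. The largest differences among the tested probes were CSAG1, itself a cancer-testis antigen gene next to MAGEA12 (1.64 ± 0.31, limma, SE, adjusted p = 0.313), and GABRA3, a GABA receptor subunit gene (-1.45 ± 0.34, adjusted p = 0.450, not well above background in MBD-TET1-CDwt). CSAG1 read -5.32 and -4.95 in empty vector and -3.09 and -3.90 in MBD-TET1-CDwt, so that it was higher in #3 than in #10, the reverse of the adjacent MAGEA2B and MAGEA12. PRRG3, which was not tested, read -4.45 in MBD-TET1-CDwt #3, its only array well above background. The only call among the neighbours was GPR50, a melatonin-related receptor gene, which was lower in MBD-TET1-CDwt than in TET1-CDwt by a log2 difference of -1.69 ± 0.19 (limma, SE, adjusted p = 0.0470). The MBD-TET1-CDwt arrays were not well above background for it, and as a bound it was at least 2.40-fold lower.

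**Figure D5:**
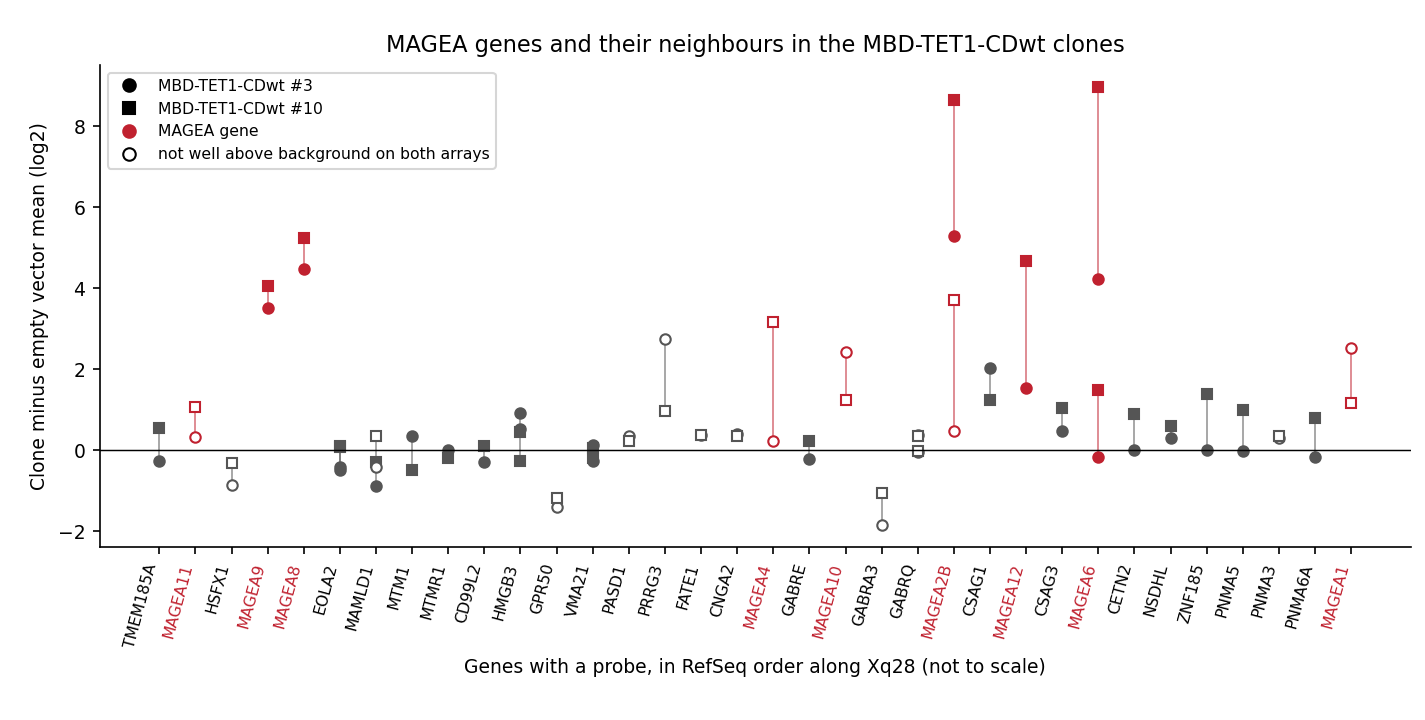
Log2 difference from the empty vector mean in MBD-TET1-CDwt #3 (circles) and #10 (squares) for each gene with a probe, in RefSeq order along Xq28 (x axis, not to scale), with MAGEA genes in red and other genes in grey. Filled points belong to probes well above background in both clones. MAGEA9 and MAGEA8 toward one end and MAGEA2B, MAGEA12, and MAGEA6 toward the other reach 4.04 to 8.98 in #10 on their higher probe, and the grey points lie between -1.86 and 2.75.

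Other branches of the MAGE superfamily gave no call in any of the 5 comparisons. The ubiquitously expressed MAGE genes (MAGED, MAGEE, MAGEF, MAGEH, MAGEL, NDN, and NSMCE3) had 10 probes, of which 7 were well above background on all arrays and 8 were tested. Their median log2 difference between MBD-TET1-CDwt and empty vector was 0.03, with a range of -0.30 to 0.41. The largest among the tested probes were MAGEH1 (0.41 ± 0.72) and MAGED1 (0.35 ± 0.32). NDN, which was not tested, read -4.92 in MBD-TET1-CDwt #3, its only array well above background, and between -7.98 and -6.84 on the others. The germline MAGEB and MAGEC genes, X-linked like MAGEA, had 13 probes, of which 10 were not well above background on any array and 2 were tested. These were MAGEB2 (0.60 ± 1.03) and a probe of MAGEC1 (-0.086 ± 0.37), neither of which passed the test. MAGEC2, which was not tested, read -4.23 in TET1-CDwt #2 and -6.09 in MBD-TET1-CDwt #10, and was well above background on 1 array.

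The genes of MAGEA protein partners and of regulators of MAGEA promoters were mostly expressed in every construct, with 16 of 18 and 27 of 33 probes well above background on all 8 arrays. Of 18 probes for 14 partner genes, among them TRIM28, RAD18, PSMD10, and SNW1, 17 were tested and none was called in any comparison (4 of 17 at an unadjusted p under 0.05 in MBD-TET1-CDwt against empty vector, where 6.60% of all probes tested were, median log2 difference -0.01). PSMD10, a proteasome assembly factor, gave 0.70 ± 0.19 (limma, SE, adjusted p = 0.558), and its second probe gave 0.0405. Of 33 probes for 19 regulators, which included DNA methyltransferases, methyl-CpG-binding proteins, histone deacetylases, and ETS factors, 30 were tested and none was called in any comparison (5 of 30 at an unadjusted p under 0.05 against the same 6.60%, median 0.13). The largest among the tested probes were HDAC2 (1.31 ± 0.52), a histone deacetylase gene, and EHMT1 (-0.92 ± 0.19), a histone methyltransferase gene (limma, SE, adjusted p = 0.753 and 0.343). Their other probes gave 0.14 for HDAC2 and -0.53 and 0.13 for EHMT1. CTCFL, a germline paralog of CTCF that was not tested, read -5.09 and -4.18 in MBD-TET1-CDwt and -7.73 and -7.94 in empty vector. It read -7.77 and -7.13 in TET1-CDwt and -7.45 and -5.44 in MBD-TET1-CDmut, and was well above background on 1 array. An untested ETS1 probe, not well above background on any array, differed by 1.4.

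The identity of the cells and of the constructs was checked on the same scale. Of 9 probes for genes of the HEK293 line (VIM, KRT8, KRT18, PAX2, LIN28B, and NEFM), 7 were well above background on all 8 arrays, and none was called. Of 14 probes for other lineages, 10 were not well above background on any array, and none was called. In contrast, 2 of them, for PTPRC and PMEL, were well above background on all 8 arrays. A second PTPRC probe was so on 2 arrays and a TYR probe on 1. The germ cell genes DDX4, DAZL, and SYCP3 were not well above background on any array, and TEX101, well above background on 6 arrays, was not called (log2 difference 0.20 ± 0.28 between MBD-TET1-CDwt and empty vector). Both probes for TET1 and both for MBD2 were well above background on all arrays. TET1 A_23_P322756 read -1.55 and -1.44 in MBD-TET1-CDwt and -0.70 and -0.91 in MBD-TET1-CDmut, below and above the -1.31 to -1.03 of the other 4 arrays, and on the other 3 probes the groups overlapped. Whether these probes lie in the part of TET1 or MBD2 that the constructs carry is not known here, and they check nothing about transgene expression.

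Across the 8 arrays, the mean signal of the 6 tested member probes was -6.49 and -6.37 in empty vector, -5.68 and -5.46 in TET1-CDwt, -3.29 and -0.91 in MBD-TET1-CDwt, and -5.51 and -5.43 in MBD-TET1-CDmut. The genes outside the family with the most similar profile were COL2A1 (Pearson r = 0.979 over 8 arrays), CYP1B1 (0.976), KRT19P2 (0.975), TRAF5 (0.974), TDRD9 (0.974), and BCAP31 (0.974). Their sizes differed widely, from a log2 difference between MBD-TET1-CDwt and empty vector of 5.10 for the cartilage collagen gene COL2A1 and 4.09 for TDRD9, a piRNA pathway helicase gene, to 0.42 for BCAP31, which was bright on all arrays. The 8 arrays share constructs and slides, and the profile is set by the 2 MBD-TET1-CDwt arrays. Within the family, r between probes ranged from 0.12, for MAGEA6 A_23_P136870 and MAGEA10, to 0.99, for MAGEA2B A_33_P3411165 and MAGEA4, both of which were detected in MBD-TET1-CDwt #10 alone.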

How the data were processed

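Cy-3 labeled cRNA from 8 stable HEK293T lines (4 constructs, 2 clones each) was hybridized by the authors to single-color Agilent 4x44K v2 arrays. The deposited values are intensities, the processed signal of Agilent Feature Extraction (9.5.1 in the submitters' notes, 10.7.3.1 in the file headers), with no scaling between arrays. The series table holds the same intensities. Control spots, flagged spots (213 to 269 per array), and 56 probes with all spots flagged on an array were left out. The log2 intensity minus the array's 75th percentile was averaged over spots, and a probe was well above background when over 50% of its spots were. Probes were named by accession through RefSeq (GRCh38.p14, 74.5% named), which also gave gene order and promoter windows. MAGEA genes there mean protein-coding ones.

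limma 3.58.1 (R 4.3.3) fitted 4 group means to 8 arrays (4 residual degrees of freedom) to the 22530 probes detected on both arrays of some group, adjusted by the Benjamini-Hochberg method, and was tested on simulated data. Genes were counted at 5-fold and 2-fold from probes detected on both arrays of the brighter group, with dim signals of the lower group set at a floor. The 2 arrays of a group limit the precision. Alternatives were normexp (offset 50, on median spot signals, fitted without spots of non-uniform feature or background), quantile and median scaling, other filters, floors, priors, and fits, and leaving out each clone. All members on every probe, the listed genes by count with those called or the 2 largest differences, and the 6 most similar genes were named, apart from a result not reported here. The members and lists were chosen with earlier results of these data known. Other steps used matplotlib 3.10.9, scipy 1.17.1, pandas 2.3.3, and numpy 2.4.6 in Python 3.11.15.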

Additional observations from a re-analysis of the deposited data

How the results depend on the processing

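Of the recomputed values of single members, 538 kept their direction and side of the threshold, or moved by less than the spread between clones, 15 moved past the threshold, 19 fell below it, 20 moved by more, and 13 changed sign. The number of member probes called by limma in MBD-TET1-CDwt was 0 in all 3 comparisons with normexp and with only the 2 groups compared. It was 1 against empty vector and 0 against TET1-CDwt without the filter on dim probes, 2 against MBD-TET1-CDmut with median scaling, and 0 against MBD-TET1-CDmut and TET1-CDwt with the trend and robust prior. Leaving out each clone in turn gave 1 to 7 against empty vector, 1 to 7 against MBD-TET1-CDmut, and 0 to 7 against TET1-CDwt, where the lone clone of a group is assumed to vary like the others. The number of genes at least 5-fold higher was 2, 1, and 2 with normexp and 2, 1, and 1 when every clone had to be above every clone, against empty vector, MBD-TET1-CDmut, and TET1-CDwt. Against MBD-TET1-CDmut it was 5 without the floor and 5 at a 2-fold threshold. Leaving out each clone gave 2 to 4, 1 to 4, and 1 to 4.

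Of the 13 sign changes, 2 were in MBD-TET1-CDwt and 11 in the other constructs. MAGEA6 A_23_P136870 turned to -0.16 against empty vector and -0.13 against MBD-TET1-CDmut without MBD-TET1-CDwt #10, and was 1.48 and 1.52 without #3. In TET1-CDwt against empty vector, MAGEA2B A_23_P148255 became -0.032 and MAGEA12 -0.14 with normexp, MAGEA8 became 0.041 with median scaling and 0.049 without empty vector #1, and MAGEA12 became -0.018 without empty vector #1 and ranged from -0.085 to 0.087 over the clones left out. In MBD-TET1-CDmut against empty vector, MAGEA6 A_23_P136870 became 0.022 with normexp, 0.0025 with median scaling, and 0.025 without MBD-TET1-CDmut #9, with a range of -0.27 to 0.19 over the empty vector clones left out. MAGEA12 ranged from -0.15 without MBD-TET1-CDmut #9 to 0.38 without #10. The cause was not tested. No paired analysis was possible because the groups share fewer than 2 clone numbers, which only name clones. The normexp fit failed on 2 arrays until spots of non-uniform feature or background were left out, a step chosen after seeing the data.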
